A study of Mus musculus with 6 samples.

Results

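The major histocompatibility complex (MHC) genes and the genes that feed peptides to MHC molecules were examined in LSKs (Lin- Sca-1+ c-Kit+), the bone marrow fraction that holds hematopoietic stem cells and early progenitors. The members were all rows of the deposited gene table whose symbol begins with H2-, together with B2m, Cd74, Ciita, Nlrc5, Tap1, Tap2, Tapbp, Psmb8, Psmb9 and Psmb10, which gave 55 of 55487 genes. Of these, 32 were class I genes, 14 belonged to class II (Cd74 and Ciita included) and 8 to class I peptide processing, and 1, H2-Ke6, is named for its place in the complex and encodes a steroid dehydrogenase rather than an MHC chain. On the GRCm38 build, 50 members lay on chromosome 17.

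The study compared irradiated Tespa1+/+ and Tespa1-/- mice by RNA sequencing of sorted LSKs, with 3 libraries in each group. Tespa1-/- mice carried the Tespa1 tm1Smoc allele of a B6.129S line that had been backcrossed to C57BL/6, and the labels describe the wild-type mice as littermates. Per the study's methods, the mice were male and 8 to 10 weeks old. Both groups had received 5 Gy of total body irradiation, and LSKs were taken at day 13. The sources do not say if each replicate came from a single mouse or from pooled mice, so p-values measure only the spread between these samples, which may be technical.

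MHC class I molecules consist of a heavy chain and beta-2 microglobulin and show peptides from inside the cell to CD8 T cells, while class II molecules are alpha-beta pairs that show peptides from endosomes to CD4 T cells. Classical class I genes are active in most nucleated cells. Class II is typical of B cells, dendritic cells and macrophages, and is also found on hematopoietic stem and progenitor cells. The coactivator CIITA drives class II genes and NLRC5 drives class I genes, both through a promoter module of X and Y boxes bound by RFX, CREB and NF-Y factors, and interferon gamma raises both classes.

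The promoter windows of the chain genes are shown because the report follows the targets of these coactivators. Of the 55 members, 38 had a promoter in the RefSeq table (GRCm38.p6), which spans 250 bases before to 50 bases after the annotated start. Letters of the X box (GCAAC) with the Y box core (ATTGG) starting 25 to 45 bases downstream on the same strand, searched on both strands, were held by 5 of 8 class II genes, by 0 of 23 class I genes and by 0 of 6 processing genes with a promoter, against 1.01% of 32851 promoters. The 5 class II windows follow, 5′ to 3′ on the strand of the gene, with the X and Y letters in capitals. They lie at chr17:34287850-34287919 (minus strand, H2-Aa), chr17:34305761-34305830 (plus, H2-Eb1), chr17:34325528-34325597 (plus, H2-Eb2), chr17:34092288-34092357 (plus, H2-Oa) and chr17:34238803-34238872 (plus, H2-Ob).
H2-Aa: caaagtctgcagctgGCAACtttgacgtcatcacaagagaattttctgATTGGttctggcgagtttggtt
H2-Eb1: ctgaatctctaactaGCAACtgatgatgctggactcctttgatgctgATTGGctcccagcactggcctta
H2-Eb2: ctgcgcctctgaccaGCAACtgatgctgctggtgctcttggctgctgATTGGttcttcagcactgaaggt
H2-Oa: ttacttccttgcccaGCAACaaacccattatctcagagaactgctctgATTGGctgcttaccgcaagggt
H2-Ob: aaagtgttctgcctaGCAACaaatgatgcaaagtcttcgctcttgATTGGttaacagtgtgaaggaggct

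From the start of the X letters to the start of the Y letters the distance was 33 bases in H2-Aa and H2-Oa, 32 in H2-Eb1 and H2-Eb2, and 30 in H2-Ob. The Y letters alone are common, in 37.4% of all promoters, and were in 20 of 23 class I, 8 of 8 class II and 4 of 6 processing promoters. The X letters alone were in 35.2% of all promoters. These are matches of letters, not sites shown to be bound. Only these exact letters were searched, so boxes with other letters would be missed. The lack of the pair in class I and processing promoters thus does not show that they lack the module of X and Y boxes.

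The class I windows below are shown to compare the chains with the highest levels, among which the changes were very unequal. The kappa B palindrome of class I promoters, searched on both strands and shown in capitals near the start of the windows of H2-K1, H2-D1 and H2-Q6, was in 10 of all promoters (0.0304%) and in those of 3 of the 23 class I genes. H2-K1 has 2 overlapping promoters in the table, both with the palindrome, and 1 window is shown. An interferon response motif, a pair of GAAA repeats with 2 bases between them, was in 3.44% of all promoters and in those of H2-T22, H2-T23 and B2m. Capitals mark the complete palindrome and the Y core. The windows lie at chr17:34000339-34000468 (minus strand, H2-K1), chr17:35262913-35263042 (plus, H2-D1), chr17:35379433-35379562 (plus, H2-Q4), chr17:35424666-35424795 (plus, H2-Q6) and chr17:35439010-35439139 (plus, H2-Q7).
H2-K1: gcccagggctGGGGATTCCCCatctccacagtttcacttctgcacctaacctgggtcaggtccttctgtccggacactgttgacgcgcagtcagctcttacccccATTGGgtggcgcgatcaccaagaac
H2-D1: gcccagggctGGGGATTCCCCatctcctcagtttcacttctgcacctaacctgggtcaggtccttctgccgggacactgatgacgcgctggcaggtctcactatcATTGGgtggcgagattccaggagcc
H2-Q4: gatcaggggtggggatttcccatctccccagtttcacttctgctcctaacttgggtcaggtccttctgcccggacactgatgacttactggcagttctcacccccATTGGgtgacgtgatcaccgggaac
H2-Q6: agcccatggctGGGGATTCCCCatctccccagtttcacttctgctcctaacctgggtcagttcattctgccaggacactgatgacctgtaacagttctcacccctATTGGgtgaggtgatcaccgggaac
H2-Q7: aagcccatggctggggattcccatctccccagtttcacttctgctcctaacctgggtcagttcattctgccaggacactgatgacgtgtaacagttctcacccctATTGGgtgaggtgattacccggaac

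Aligned end to end, the H2-Q6 and H2-Q7 windows were 96.2% identical, and the other 9 pairs of these windows were between 80.2% and 87.0% identical.

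Library totals ranged from 12856630 to 30576981 counts. Tespa1 itself was at 32.7 to 36.0 CPM (normalised counts scaled by library size with TMM factors) in Tespa1+/+ and at 14.2 to 15.3 CPM in Tespa1-/- libraries. Its log2 fold change was -1.23 (edgeR adjusted p 7.0e-06, SE 0.07), so its transcript was lower but not absent; which exons the reads came from was not analysed here. All fold changes are Tespa1-/- over Tespa1+/+. Fold changes fell with gene length across genes (Spearman's rho -0.62 over 10096 genes, which are not independent replicates), and with total counts as the only scaling the median of all genes moved by -0.10 on the log2 scale. Values from a fit with a correction for exon length are therefore given beside the members where they matter.

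Defining genes of LSKs were present in every library. Kit, the stem cell factor receptor, was at 333 ± 9.79 CPM for Tespa1+/+ and 169.6 ± 6.13 CPM for Tespa1-/- libraries (SD, n = 3 each), and Kit, Cd34, Flt3 and Slamf1 fell by 0.97, 0.77, 1.01 and 1.45 on the log2 scale. Ly6a, which encodes Sca-1, overlapped between the groups and did not pass the test (log2 fold change -0.32, edgeR adjusted p 0.109). With the length correction Ly6a was lower (-0.65, edgeR adjusted p 0.00933), and Kit, Cd34, Flt3 and Slamf1 were at -0.57, -0.46, -0.78 and -1.22. Markers of the cells that carry most class II also moved, where 31.5% of all genes tested were higher and 31.8% lower. Of 8 B cell markers 6 were tested, of which 5 fell and 1 (Cd79b) rose. Their summed level was 48.7 to 53.1 CPM in Tespa1+/+ and 35.6 to 39.3 CPM in Tespa1-/- libraries. Cd79b was at -0.03 (edgeR adjusted p 0.731) with the length correction, under which 5 B cell markers were lower and 0 higher. Ms4a1 was at 0 to 3 counts in Tespa1+/+ and at 0 in all Tespa1-/- libraries. Of 8 dendritic cell markers 6 were tested and 5 fell, with a sum of 30.4 to 31.6 CPM against 19.1 to 21.3 CPM, and Cd209a was at 0 in every library. Of 8 monocyte and macrophage markers 7 were tested, of which 2 rose and 3 fell (sum 527 to 568 CPM against 692 to 765 CPM), and C1qa did not exceed 6 counts in any library. All 6 neutrophil markers rose, from a sum of 4.02 to 4.65 CPM to one of 344 to 356 CPM. Of 5 plasma cell markers 4 were tested, of which 2 rose and 1 (Sdc1) fell (sum 49.97 to 74.2 CPM against 99.6 to 106.5 CPM). Most of this sum was Jchain, at a mean of 40.3 CPM in Tespa1+/+ and 90.7 CPM in Tespa1-/- libraries. Of 8 T and NK cell markers 4 were tested, of which 1 (Nkg7) rose and 2 (Cd4 and Cd8a) fell (sum 195 to 205 CPM against 312 to 328 CPM). Nearly all of that sum was Nkg7, at a mean of 194 CPM in Tespa1+/+ and 317 CPM in Tespa1-/- libraries. Cd3e was at 4 to 8 counts in Tespa1+/+ and at 0 in all Tespa1-/- libraries. The part of these markers in the results below was not tested, and in bulk RNA fewer cells of a type and less RNA per cell cannot be told apart.

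MHC class I heavy chains did not change as a block. The neighbouring Q region genes H2-Q5, H2-Q6 and H2-Q7, fell between 2.37-fold and 3.50-fold, while the classical chain H2-D1 did not pass the test and the classical chain H2-K1 fell by 0.16 on the log2 scale. Of 32 class I genes, 15 passed the filter on low counts; 14 had no count in any library, and H2-Bl, H2-M5 and H2-Q2 had 7 counts or fewer in each library. At an adjusted p under 0.05, 9 of the 15 were lower and 0 were higher, and 3 were lower with a fold over 1.5. Among all 15332 genes tested, 31.8% were lower, 31.5% were higher, and 19.2% were lower with a fold over 1.5. The median log2 fold change was -0.19 over the 15 class I genes and 0.00 over all genes. With the length correction 12 class I genes were lower and 0 were higher, with a median of -0.48.

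**Figure D1:**
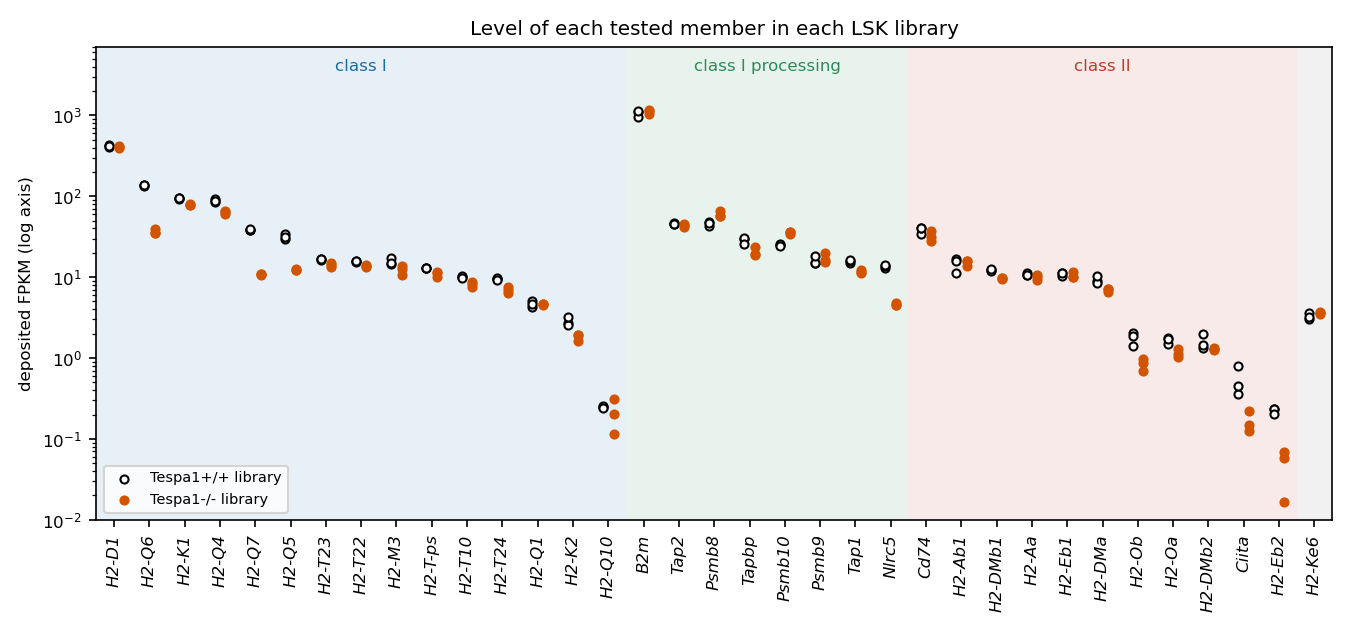
Deposited FPKM (fragments scaled by gene length and library size, log axis) of the 35 tested members in each library; open circles are Tespa1+/+ and filled circles Tespa1-/- libraries, and members are grouped by class, with H2-Ke6 at the far right, and ordered by their Tespa1+/+ mean. H2-Q6 ranks next to H2-D1 in Tespa1+/+ (137 FPKM) and lies below H2-K1 and H2-Q4 in Tespa1-/- LSKs (36.4 FPKM).

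H2-D1 (ENSMUSG00000073411, chr17:35262730-35267499, plus strand), which encodes a classical heavy chain that presents to CD8 T cells, was the most abundant class I gene. It was at 1410, 1495 and 1454 CPM in Tespa1+/+ and at 1510, 1579 and 1477 CPM in Tespa1-/- libraries. The groups overlapped, and the log2 fold change of 0.07 (edgeR adjusted p 0.117, SE 0.03) was -0.08 with the length correction and -0.03 with total counts, so its sign depended on the scaling. H2-K1 (ENSMUSG00000061232, chr17:33996017-34000347, minus strand), the other classical chain, was at 960, 967 and 983 CPM in Tespa1+/+ and at 867, 891 and 847 CPM in Tespa1-/- libraries. All its Tespa1-/- libraries lay below all Tespa1+/+ libraries, and the log2 fold change was -0.16 (edgeR adjusted p 0.00127, SE 0.03). With a correction on the length implied by the deposited values, in place of exon length, the log2 fold change of H2-K1 was 0.11 (edgeR adjusted p 0.00944), so its direction is not stable to that choice.

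H2-Q6 and H2-Q7 encode Qa-2, a nonclassical class I molecule anchored in the membrane by a lipid. H2-Q6 (ENSMUSG00000073409, chr17:35424850-35430055, plus strand) was at 292, 296 and 302 CPM in Tespa1+/+ and at 81.8, 91.0 and 81.2 CPM in Tespa1-/- libraries. The groups were far apart, with less spread within each than between them, and the log2 fold change was -1.81 (SE 0.05, edgeR adjusted p 9.1e-07). H2-Q7 (ENSMUSG00000060550, chr17:35439155-35443773, plus strand) was at 275, 279 and 288 CPM in Tespa1+/+ and at 83.7, 83.4 and 81.9 CPM in Tespa1-/- libraries. Here too no library of one group reached the other, and the log2 fold change was -1.76 (SE 0.03, edgeR adjusted p 2.3e-07). H2-Q5 (ENSMUSG00000055413, chr17:35394126-35397800, plus strand), annotated as a polymorphic pseudogene, was at 57.8, 65.4 and 60.4 CPM in Tespa1+/+ and at 25.7, 26.2 and 25.6 CPM in Tespa1-/- libraries. It fell by 1.24 on the log2 scale (SE 0.06, edgeR adjusted p 4.3e-06), again without overlap.

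These 3 genes resemble each other and other class I genes, which limits how well reads can be split among them. Of all stretches of 100 bases in the transcripts, 10.8% of those of H2-Q6, 12% of those of H2-Q7 and 14% of those of H2-Q5 occur in another gene. When H2-Q6 and H2-Q7 were summed to 1 gene, a setting chosen after seeing the data, the log2 fold change was -1.78. Over all alternatives the log2 fold change lay between -2.02 and -1.77 for H2-Q6, between -1.86 and -1.64 for H2-Q7 and between -1.52 and -1.18 for H2-Q5.

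Among the windows printed above, those of H2-Q6, H2-D1 and H2-K1 hold the complete palindrome and those of H2-Q7 and H2-Q4 do not. The log2 fold changes were -1.81 for H2-Q6, -1.76 for H2-Q7, -0.38 for H2-Q4, -0.16 for H2-K1 and 0.07 for H2-D1.

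The make-up of class I transcripts differed between the groups. As a share of the summed class I FPKM, which is a level per length, H2-Q5, H2-Q6 and H2-Q7 together held 23.3%, 22.9% and 23.5% for Tespa1+/+ against 8.65%, 8.88% and 8.76% for Tespa1-/- libraries. H2-D1 held 46.3%, 46.8% and 46.3% for Tespa1+/+ against 59.5%, 59.6% and 59.5% for Tespa1-/- libraries. The share of H2-D1 was thus higher in every Tespa1-/- library although its own level did not pass the test. Summed over class I, the level was 3716 ± 75.7 CPM for Tespa1+/+ and 3130.3 ± 99.9 CPM for Tespa1-/- libraries (SD, n = 3 each). Without H2-Q5, H2-Q6 and H2-Q7 it was 3078 ± 65.4 and 2937 ± 93.7 CPM, so most of the difference in the sum lay in these 3 genes.

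**Figure D2:**
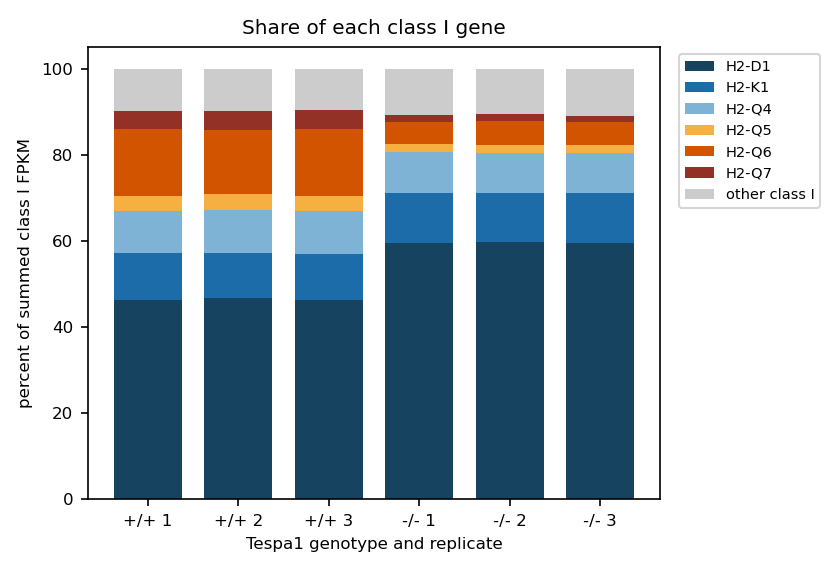
Stacked bars give, for each of the 6 libraries, the percent of the summed class I FPKM held by each gene; the 3 bars on the left are Tespa1+/+ and the 3 on the right Tespa1-/- replicates. The combined band of H2-Q5, H2-Q6 and H2-Q7 averages 23.2% for Tespa1+/+ against 8.77% for Tespa1-/- libraries, and the H2-D1 band averages 46.4% and 59.6%.

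Per length, the order of class I levels in Tespa1+/+ LSKs was H2-D1 at 415 FPKM, H2-Q6 at 137, H2-K1 at 94.5, H2-Q4 at 88.4, H2-Q7 at 38.8 and H2-Q5 at 31.8 FPKM, and no neighbours in this order overlapped among the Tespa1+/+ libraries. In Tespa1-/- LSKs it was H2-D1 at 405, H2-K1 at 78.9, H2-Q4 at 63.2 and H2-Q6 at 36.4 FPKM, and H2-Q5 (12.5 FPKM) and H2-Q7 (10.7 FPKM) lay below the T region genes H2-T23 and H2-T22 (14.1 and 13.9 FPKM, ranges that overlap). H2-Q6 and H2-Q7 had similar CPM, and the exons of H2-Q7 cover 4265 bases against 2085 for H2-Q6.

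Among the remaining class I genes, 4 further nonclassical or pseudogene members fell with folds under 1.5, H2-Q4 by 0.38, H2-K2 by 0.53, H2-T24 by 0.35 and H2-T10 by 0.19 on the log2 scale. H2-T23, which encodes Qa-1, a ligand of inhibitory NK cell receptors, fell by 0.13 (edgeR adjusted p 0.0424). The calls of H2-T23 and H2-T10 were lost under several alternatives, including 5 and 5 of the 6 fits that leave out a replicate. H2-Q4 and H2-T10 share exon sequence with antisense genes (496 bases with Gm11131 and 925 bases with BC023719), and whether the counting used the strand is not given in the sources used here.

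H2-T22, H2-M3, H2-T-ps, H2-Q10 and H2-Q1 did not pass the test. H2-M3, which presents formylated peptides of bacterial and mitochondrial origin, was at 21.7 ± 2.19 CPM in Tespa1+/+ and 18.4 ± 2.46 CPM in Tespa1-/- LSKs (SD, n = 3), and its log2 fold change of -0.24 (edgeR adjusted p 0.121, SE 0.12) was -0.53 (edgeR adjusted p 0.0085) with the length correction. H2-Q1 was at 19.5, 22.7 and 21.2 CPM in Tespa1+/+ and at 21.9, 22.5 and 22.3 CPM in Tespa1-/- libraries. These values overlapped, and the log2 fold change of 0.07 (edgeR adjusted p 0.442, SE 0.07) was -0.04 with the length correction and -0.03 with total counts.

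**Figure D3:**
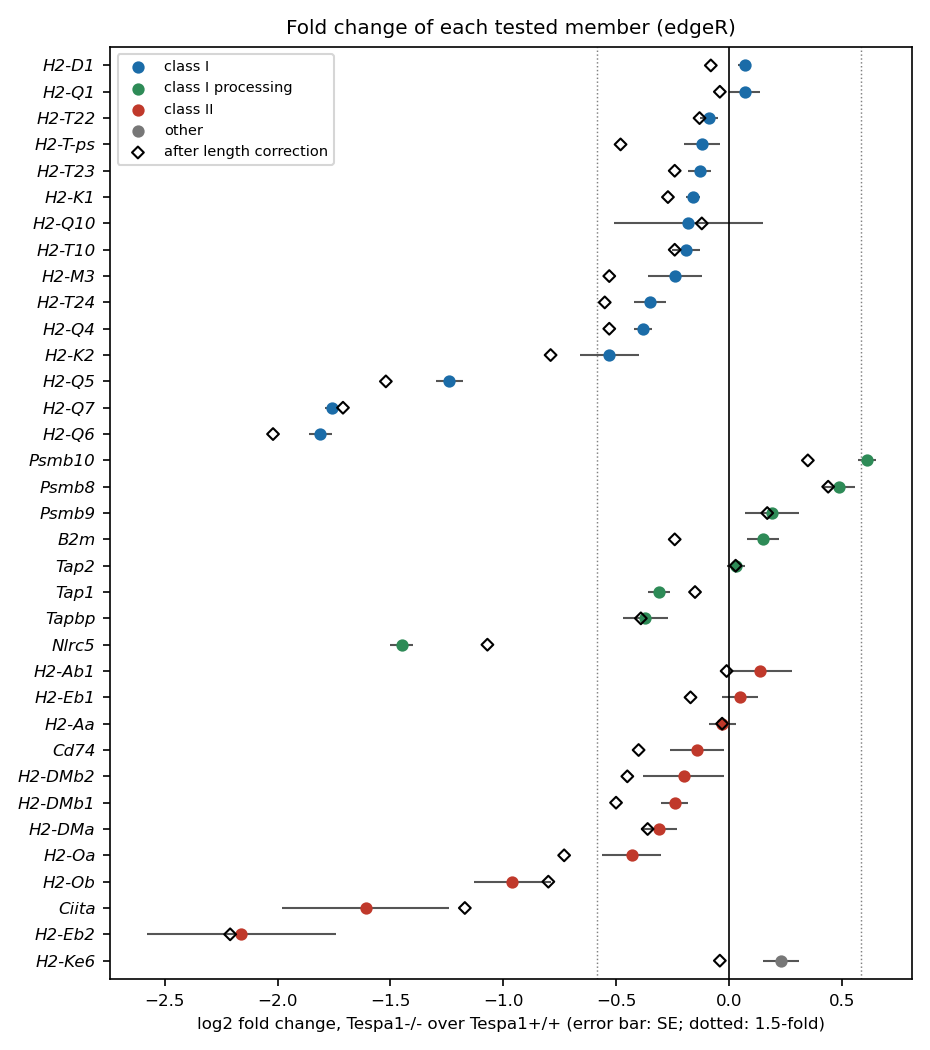
Log2 fold change (Tespa1-/- over Tespa1+/+, edgeR, error bars SE) of the 35 tested members by class; open diamonds give the value after the correction for exon length, and dotted lines mark 1.5-fold. H2-Q6, H2-Q7, H2-Q5, Nlrc5, H2-Ob, Ciita and H2-Eb2 lie beyond the lower line and Psmb10 (0.61) beyond the upper line.

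The genes that load class I moved in both directions. Nlrc5 fell, Tap1 and Tapbp fell by less, Psmb8 and Psmb10 rose, and B2m, Tap2 and Psmb9 did not pass the test. Thus 2 of 8 were higher and 3 of 8 lower, against 31.5% and 31.8% of all genes tested. Past 1.5-fold 1 was higher, against 14.0% of all genes, and 1 was lower, against 19.2%. The median log2 fold change over the 8 was 0.09, and -0.06 with the length correction.

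Nlrc5 (ENSMUSG00000074151, chr8:94434356-94527272, plus strand), the coactivator of class I genes, had 165, 175 and 178 CPM in Tespa1+/+ and 62.4, 66.1 and 61.0 CPM in Tespa1-/- libraries. The groups did not overlap, and the log2 fold change was -1.45 (SE 0.05, edgeR adjusted p 1.3e-06), or -1.07 with the length correction. Exons of Nlrc5 share 78 bases with the antisense gene 9330175E14Rik.

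B2m (ENSMUSG00000060802, chr2:122147686-122153083, plus strand), the light chain that all class I heavy chains need, was at 915, 802 and 931 CPM in Tespa1+/+ and at 1033, 917 and 996 CPM in Tespa1-/- libraries. The groups overlapped, with a log2 fold change of 0.15 (edgeR adjusted p 0.0772, SE 0.07) that turned to -0.24 (edgeR adjusted p 0.0101) with the length correction, so no direction is given for B2m. In FPKM, B2m was the most abundant member, at 1061 ± 85.1 in Tespa1+/+ and 1101 ± 65.2 in Tespa1-/- LSKs (SD, n = 3).

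Tap1 and Tap2 form the transporter that brings peptides into the endoplasmic reticulum. Tap1 (ENSMUSG00000037321, chr17:34187553-34197225, plus strand) was at 169, 181 and 184 CPM in Tespa1+/+ and at 136, 151 and 143 CPM in Tespa1-/- libraries. These groups did not overlap, and the log2 fold change was -0.31 (SE 0.05, edgeR adjusted p 0.0014); with the length correction it was -0.15, and with the correction on implied length it was 0.01. Tap2 (ENSMUSG00000024339, chr17:34203527-34216321, plus strand) was at 241, 233 and 239 CPM in Tespa1+/+ and at 244, 254 and 232 CPM in Tespa1-/- libraries, which overlapped (log2 fold change 0.03, SE 0.04, edgeR adjusted p 0.462; -0.07 with total counts). Tapbp (ENSMUSG00000024308, chr17:33915899-33929292, plus strand) encodes tapasin, which tethers class I molecules to the transporter. It was at 194, 201 and 172 CPM in Tespa1+/+ and at 133, 139 and 168 CPM in Tespa1-/- libraries. The groups came close but did not overlap (log2 fold change -0.37, SE 0.10, edgeR adjusted p 0.0128), and without Tespa1+/+ replicate 2 the adjusted p was 0.0518.

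Psmb8, Psmb9 and Psmb10 encode the catalytic subunits of the immunoproteasome, which replace those encoded by Psmb5, Psmb6 and Psmb7 and favour peptides that suit class I. Psmb8 (ENSMUSG00000024338, chr17:34197721-34201454, plus strand) was at 218, 246 and 239 CPM in Tespa1+/+ and at 314, 357 and 314 CPM in Tespa1-/- libraries. It rose without overlap (log2 fold change 0.49, SE 0.07, edgeR adjusted p 0.00052). Psmb10 (ENSMUSG00000031897, chr8:105935735-105938444, minus strand) was at 97.0, 100.4 and 95.2 CPM in Tespa1+/+ and at 152, 152 and 143 CPM in Tespa1-/- libraries. It rose too, again without overlap (log2 fold change 0.61, SE 0.04, edgeR adjusted p 1.6e-05), and by 0.35 with the length correction. Psmb9 (ENSMUSG00000096727, chr17:34181987-34187764, minus strand) was at 102, 100.4 and 125 CPM in Tespa1+/+ and at 145, 117 and 110 CPM in Tespa1-/- libraries. Its groups overlapped (log2 fold change 0.19, SE 0.12, edgeR adjusted p 0.221), and its exons share 212 bases with those of Tap1 on the opposite strand.

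The standard subunits also rose. Psmb5, Psmb6 and Psmb7 had log2 fold changes of 0.79, 0.71 and 0.77 (edgeR adjusted p 6.8e-06, 1.9e-05 and 2.1e-06). With the length correction these were 0.41, 0.47 and 0.72, beside 0.44 for Psmb8, 0.17 for Psmb9 and 0.35 for Psmb10. After that correction Psmb8 thus did not rise less than Psmb5. The ratios that follow carry no length correction. The ratio of Psmb8 to Psmb5 in FPKM, taken within each library, was 0.647, 0.670 and 0.650 for Tespa1+/+ against 0.508, 0.568 and 0.514 for Tespa1-/- libraries. That of Psmb9 to Psmb6 was 0.362, 0.347 and 0.423 for Tespa1+/+ against 0.327, 0.235 and 0.233 for Tespa1-/- libraries, and that of Psmb10 to Psmb7 was 0.526, 0.567 and 0.531 against 0.499, 0.502 and 0.459. In each pair every Tespa1-/- library lay below every Tespa1+/+ library. The two-sided exact permutation p was 0.10 for each, the smallest that 3 against 3 libraries allow, and 0.14 after Benjamini-Hochberg adjustment over the 10 ratios computed.

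**Figure D4:**
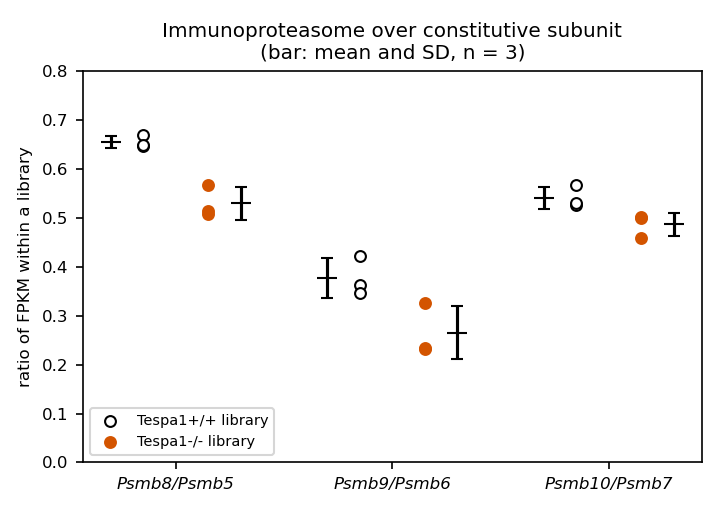
Ratio of the FPKM of each immunoproteasome subunit to that of the standard subunit it replaces, per library (open, Tespa1+/+; filled, Tespa1-/-), with the mean and SD of each group (n = 3) beside the points. The mean ratio was 0.655 against 0.530 for Psmb8/Psmb5, 0.377 against 0.265 for Psmb9/Psmb6 and 0.541 against 0.487 for Psmb10/Psmb7. These ratios carry no correction for the trend with gene length.

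Of the other ratios, that of Tap1 to Tap2 was 0.342 ± 0.0194 for Tespa1+/+ against 0.268 ± 0.0131 for Tespa1-/- libraries, and that of H2-K1 to H2-D1 was 0.228 ± 0.00621 and 0.195 ± 0.00191 (SD, n = 3; exact permutation p 0.10 and adjusted 0.14 for both). H2-D1 to B2m was 0.393 ± 0.0427 for Tespa1+/+ against 0.369 ± 0.0344 for Tespa1-/- libraries, which overlapped (exact permutation p 0.50, adjusted 0.56).

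Within class II, the chain genes H2-Aa, H2-Ab1 and H2-Eb1 did not pass the test. The 6 genes that fell were H2-DMa, H2-DMb1, H2-Oa and H2-Ob of the exchange factors, the coactivator gene Ciita and the rare beta chain gene H2-Eb2. Of 14 genes, 11 were tested; H2-Ea, a polymorphic pseudogene in this strain's reference genome, and the pseudogenes H2-Pa and H2-Pb had 1 count or none in each library. At an adjusted p under 0.05, 6 of 11 were lower and 0 were higher, and 3 were lower past 1.5-fold (H2-Eb2, Ciita and H2-Ob). Of all genes tested, 31.8% were lower, 31.5% higher and 19.2% lower past 1.5-fold. The groups did not overlap for the same number, 6 of 11, against 69.1% of all genes tested. The median log2 fold change was -0.24, and -0.45 with the length correction, under which 7 were lower. Summed over class II, the level was 395 ± 19.7 CPM for Tespa1+/+ and 362 ± 16.4 CPM for Tespa1-/- libraries (SD, n = 3 each). Of the marker lists given above, the sums for B cells and dendritic cells were lower in the Tespa1-/- libraries, although Cd79b rose in the fit without the length correction. The sum for monocytes and macrophages was higher, with 2 markers up and 3 down. The part of these markers in the class II levels was not tested.

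H2-Aa and H2-Ab1 encode the alpha and beta chain of I-A, the main class II molecule of C57BL/6 mice. H2-Aa (ENSMUSG00000036594, chr17:34282744-34287823, minus strand) was at 47.6, 50.9 and 49.0 CPM in Tespa1+/+ and at 51.3, 48.5 and 44.5 CPM in Tespa1-/- libraries. The groups overlapped (log2 fold change -0.03, SE 0.06, edgeR adjusted p 0.703), and leaving out Tespa1-/- replicate 3 gave 0.03. H2-Ab1 (ENSMUSG00000073421, chr17:34257689-34269419, plus strand) was at 87.0, 59.1 and 83.4 CPM in Tespa1+/+ and at 88.4, 76.5 and 87.7 CPM in Tespa1-/- libraries. Tespa1+/+ replicate 2 was the low library, the groups overlapped (log2 fold change 0.14, SE 0.14, edgeR adjusted p 0.422), and without that library the value was -0.01. H2-Eb1 (ENSMUSG00000060586, chr17:34305867-34316674, plus strand), the beta chain of I-E, was at 37.3, 34.8 and 37.9 CPM in Tespa1+/+ and at 36.2, 41.9 and 36.0 CPM in Tespa1-/- libraries. It overlapped as well (log2 fold change 0.05, SE 0.08, edgeR adjusted p 0.558; -0.17 with the length correction and -0.05 with total counts). The invariant chain gene Cd74 (ENSMUSG00000024610), whose product escorts class II molecules to endosomes, was at 98.4, 119 and 119 CPM in Tespa1+/+ and at 98.9, 118 and 87.7 CPM in Tespa1-/- libraries. Its groups overlapped (log2 fold change -0.14, SE 0.12, edgeR adjusted p 0.322), and with the length correction it was lower (-0.40, edgeR adjusted p 0.0215).

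Ciita (ENSMUSG00000022504, chr16:10480059-10528418, plus strand), the class II coactivator, was rare, with 79, 310 and 82 counts in Tespa1+/+ and 50, 24 and 24 counts in Tespa1-/- libraries. Scaled to library size this was 4.35, 9.82 and 5.53 CPM against 2.94, 1.65 and 1.94 CPM. The groups did not overlap, and Tespa1+/+ replicate 2 stood above the other libraries. The log2 fold change was -1.61 (SE 0.37, edgeR adjusted p 0.00685), -1.15 without that library and -1.17 with the length correction. Exons of Ciita share 329 bases with those of the antisense gene Dexi.

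H2-DM, encoded by H2-DMa with H2-DMb1 or H2-DMb2, exchanges peptides on class II molecules, and H2-O, encoded by H2-Oa and H2-Ob, restrains it. H2-DMa (ENSMUSG00000037649, chr17:34119541-34139101, plus strand) was at 59.9, 56.7 and 69.3 CPM in Tespa1+/+ and at 51.2, 50.8 and 47.5 CPM in Tespa1-/- libraries. It fell without overlap (log2 fold change -0.31, SE 0.08, edgeR adjusted p 0.0115), and it shares 360 exon bases with Brd2 on the opposite strand. H2-DMb1 (ENSMUSG00000079547, chr17:34153072-34160230, plus strand) was at 26, 25.1 and 26.5 CPM in Tespa1+/+ and at 22.4, 21.6 and 21.8 CPM in Tespa1-/- libraries. It fell as well, without overlap (log2 fold change -0.24, SE 0.06, edgeR adjusted p 0.00881). H2-DMb2 (ENSMUSG00000037548, chr17:34143307-34151555, plus strand), with 5.56, 3.74 and 3.98 CPM against 3.70, 3.93 and 3.87 CPM, overlapped between groups and did not pass (log2 fold change -0.20, SE 0.18, edgeR adjusted p 0.358). Of the stretches of 100 bases in H2-DMb1 and H2-DMb2, 11.3% and 10.3% are common to both genes.

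H2-Ob (ENSMUSG00000041538, chr17:34238903-34254414, plus strand) was at 12.6, 18.0 and 16.9 CPM in Tespa1+/+ and at 9.28, 6.68 and 8.47 CPM in Tespa1-/- libraries. No Tespa1-/- library reached the lowest Tespa1+/+ library, and the log2 fold change was -0.96 (SE 0.17, edgeR adjusted p 0.00233). H2-Oa (ENSMUSG00000024334, chr17:34092340-34095234, plus strand) was at 5.07, 6.05 and 5.87 CPM in Tespa1+/+ and at 4.11, 4.75 and 3.71 CPM in Tespa1-/- libraries. It fell by 0.43 (SE 0.13, edgeR adjusted p 0.0249), a call that DESeq2 (adjusted p 0.126) and 4 of the 6 fits without a replicate did not make. The ratio of H2-Ob to H2-DMb1 in FPKM was 0.113, 0.169 and 0.149 for Tespa1+/+ against 0.0974, 0.0726 and 0.0913 for Tespa1-/- libraries, without overlap (exact permutation p 0.10, adjusted 0.14), whereas the ratios of H2-Oa to H2-DMa and of H2-Aa to H2-Ab1 overlapped (exact permutation p 0.50 and 0.60, adjusted 0.56 and 0.60).

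H2-Eb2 (ENSMUSG00000067341, chr17:34325665-34341412, plus strand), a second E beta gene, had 14, 24 and 10 counts in Tespa1+/+ and 1, 3 and 3 counts in Tespa1-/- libraries. At these counts the ratio of the group sums, 48 against 7 counts scaled to library size, was 0.214, with an exact 95% interval of 0.0818 to 0.476 that covers counting error only. The groups did not overlap, and the edgeR adjusted p was 0.0031.

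The class II genes with the X and Y letters printed above had unequal log2 fold changes. On the log2 scale H2-Aa was at -0.03, H2-Eb1 at 0.05, H2-Oa at -0.43, H2-Ob at -0.96 and H2-Eb2 at -2.16.

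Along chromosome 17, the 3 class I genes that fell past 1.5-fold, H2-Q5, H2-Q6 and H2-Q7, lie within 50 kb, and the flanking class I genes, H2-Q4 at 8.8 kb and H2-Q10 at 26.3 kb, had log2 fold changes of -0.38 and -0.18 (H2-Q10 did not pass the test, with 14 to 54 counts a library). Of 3 tested genes between H2-D1 and H2-Q10 that are not members, Gm8750, which lies between H2-Q5 and H2-Q6, was at -1.02, Gm11131 at -0.38 and Gm8741 at 0.47. Among all genes tested, 31.5% were higher and 31.8% lower. Over the 3509 kb from H2-K2 to H2-M2, 2 of 29 tested members were higher and 15 lower, and of 94 other tested genes 35 were higher and 25 lower. The median log2 fold change was -0.19 for these members and 0.14 for the other genes. H2-Ke6, the remaining member, was at 16.7 ± 1.4 CPM for Tespa1+/+ and 19.5 ± 0.582 CPM for Tespa1-/- libraries (SD, n = 3 each). The groups did not overlap (log2 fold change 0.23, SE 0.08, edgeR adjusted p 0.0461), but the value was -0.04 with the length correction, and 61.6% of its stretches of 100 bases also lie in Gm20427.

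**Figure D5:**
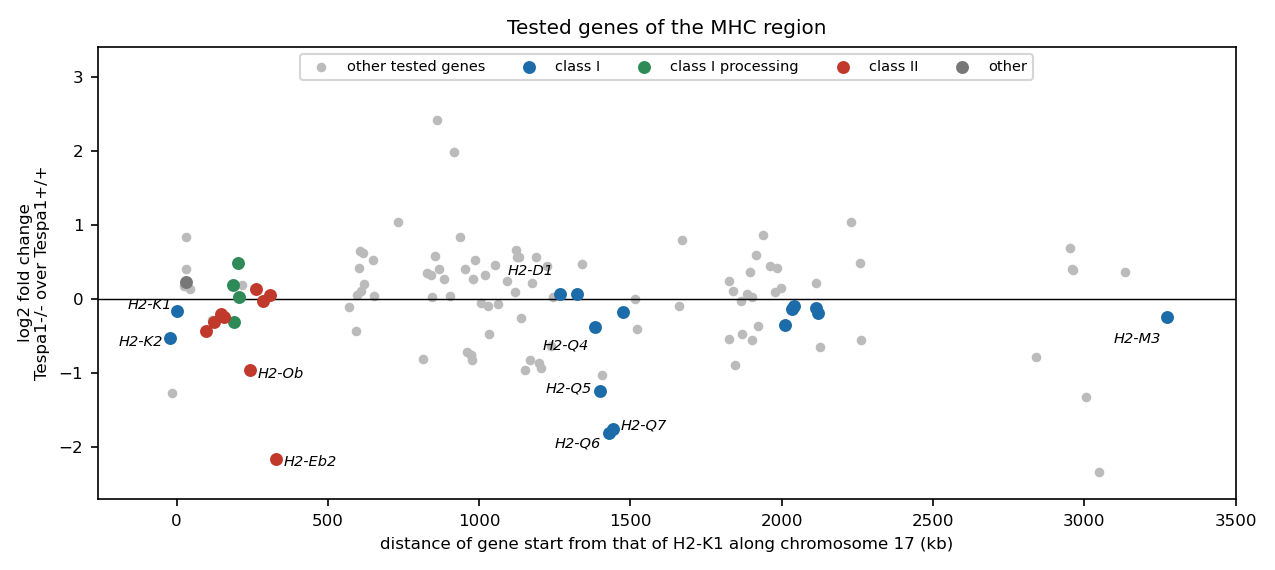
Log2 fold change (Tespa1-/- over Tespa1+/+) of tested genes against the distance of the gene start from that of H2-K1 on chromosome 17, in kb; colours mark member classes and grey points are other genes. H2-Q5, H2-Q6 and H2-Q7 form a low cluster at -1.24 to -1.81 beside H2-D1 (0.07) and H2-Q4 (-0.38).

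The wider pathway, 39 further genes of which 37 were tested, had 17 higher and 12 lower genes, 8 of each past 1.5-fold, and a median log2 fold change of 0.03. Over all genes tested, 31.5% were higher and 31.8% lower, and 14.0% and 19.2% were so past 1.5-fold. Genes of class I peptide supply and folding were mostly higher: 10 of 11 rose, among them the chaperone Calr (0.64), the thiol reductase Pdia3 (0.59) and the proteasome activator Psme2 (0.66), and Erap1, which trims peptides, fell by 0.35. The median over these 11 was 0.59 on the log2 scale, and 0.41 with the length correction, under which 9 were higher and 0 lower. Of 5 tested genes of class II processing, 3 were higher, Ifi30 (GILT, a reductase of endosomes) by 0.87, and 2 were lower, the protease gene Lgmn by 0.68.

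Among genes of interferon gamma signalling, the kinase genes Jak2 and Jak1 fell by 0.78 and 0.50 on the log2 scale, and the transcription factor genes Irf1 and Irf2 fell by 0.60 and 0.59. Jak2 had 73.8 ± 4.77 CPM for Tespa1+/+ against 43 ± 3.58 CPM for Tespa1-/- LSKs (SD, n = 3 each; edgeR adjusted p 1.0e-04). With the length correction the log2 fold changes were -0.65 for Jak2, -0.19 for Jak1, -0.58 for Irf1 and -0.28 for Irf2. The receptor genes Ifngr1 (0.03) and Ifngr2 (-0.02), Irf9 (-0.51) and the inhibitor gene Socs1 (-0.05) did not pass the test.

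Of the 7 genes for factors that bind the X and Y boxes, Rfx5 had 38.4 ± 4.12 CPM for Tespa1+/+ and 19.6 ± 3.22 CPM for Tespa1-/- LSKs (SD, n = 3 each). It fell by 0.97 on the log2 scale (edgeR adjusted p 4.7e-04, SE 0.13). Its partner gene Rfxap rose by 0.60 on the log2 scale (edgeR adjusted p 2.2e-04, SE 0.07). Creb1 (0.40) and Nfyb (0.17) rose as well, and Rfxank (-0.18), Nfyc (0.06) and Nfya (-0.48) did not pass the test. With the length correction Rfx5 was at -0.80, Rfxap at 0.40, Creb1 at 1.01 and Nfyb at 0.30. With total counts Nfyb was at 0.07 and did not pass the test (edgeR adjusted p 0.287).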

How the data were processed

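Poly-A RNA of LSKs from irradiated mice had been sequenced as stranded paired-end libraries, 3 Tespa1+/+ and 3 Tespa1-/-. The authors deposited 1 table with raw counts and FPKM values (counts scaled by gene length and library total) per gene and sample. The submitters' processing notes name CASAVA 1.8, HISAT2, StringTie, edgeR and GRCm38; the tool and strand setting behind the counts are not given in the sources used here. Groups came from the sample labels. Coordinates of all 55 members equalled those of GENCODE M21.

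Counts were filtered with filterByExpr, scaled with TMM and compared by the quasi-likelihood F-test of edgeR 4.0.16 in R 4.3.3, without covariates, with Benjamini-Hochberg adjustment over 15332 genes; calls were made at an adjusted p under 0.05, with and without a fold over 1.5. CPM are scaled with TMM factors, and FPKM as deposited were used to compare genes. The SE is the absolute log2 fold change over the root of F. The fits were also run on simulated data. The simulation had less spread between libraries and far fewer changed genes than the real data, so it does not show how often the fits err here. Totals of 12856630 to 30576981 counts per library leave little counting error for abundant genes; reads are not independent molecules, so intervals cover counting error only. Members and lists were chosen with earlier results of these data known. Some items of the lists are not reported here. Full values were given for the classical chains, B2m, the class II chains and exchange factors, the regulators and the processing genes, and for up to 3 largest rises and falls among the other members with a mean count of at least 100; pathway genes were named when past 1.5-fold, and further pathway genes and the remaining class I genes were named after their values were seen. The length correction fitted log2 CPM deviations on exon length by loess (span 0.5) and used the fit as an offset. The share of 100-base stretches common to other genes was counted in GENCODE M21 transcripts.

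The alternatives were RLE factors, total counts, no filter, a mean count of at least 10, DESeq2 1.42.0, a replicate block, the omission of each replicate, limma-trend (limma 3.58.1) on log2(FPKM + 1) and log2(FPKM + 0.1) for genes reaching an FPKM of 1 in 3 or more samples, and on log2(FPKM + 1) without that filter, length corrections on exon length and on the length implied by count and FPKM, unadjusted p-values at the same cutoffs, and glmTreat. H2-Q6 and H2-Q7 were also summed, a setting chosen after seeing the data. No per-sample column was left unused.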

Additional observations from a re-analysis of the deposited data

How the results depend on the processing

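Of 21 called members, 14 kept their call under every alternative in which they were tested, and of 35 tested members 16 kept direction and side of the threshold. H2-Eb2 and Ciita, among the 14, were tested in 14 and 15 alternatives, against 17 for the other called members. The counts of called class I members (9 lower), class II members (6 lower) and processing genes (2 higher and 3 lower) stayed within 1.5 times these values, with 2 exceptions in class I. H2-D1 was called higher with the replicate number as a block (edgeR adjusted p 0.0478). H2-K1 was called higher with the length correction on implied length (edgeR adjusted p 0.00944), against its main call of lower. Replicate numbers did not pair the samples: deviations of same-numbered libraries correlated at 0.046, 0.011 and 0.06, and the block otherwise moved no count by over 1.5 times. When a replicate was left out, 7 to 8 class I, 5 to 6 class II and 2 to 3 processing members were lower, 2 to 3 processing members were higher, and pathway genes were 15 to 17 higher and 9 to 11 lower. Past 1.5-fold, class II had 3 lower genes, but 0, 1 and 0 with limma-trend on log2(FPKM + 1), on log2(FPKM + 0.1) and without a filter, since Ciita and H2-Eb2 do not pass the FPKM filter, and without it a pseudocount of 1 gives them -0.39 and -0.22, with H2-Ob at -0.58. Psmb10, the 1 processing gene higher past 1.5-fold, gave 0 with total counts, limma-trend, both length corrections and glmTreat. Pathway genes higher past 1.5-fold numbered 4 with total counts and limma-trend, 2 with both length corrections and 5 with glmTreat; those lower numbered 4 with limma-trend on log2(FPKM + 1), both length corrections and glmTreat. The log2 ratio of summed levels was -0.25 for class I, -0.39 in FPKM and -0.35 with total counts, and -0.13 for class II, -0.21 in FPKM and -0.23 with total counts. For processing genes it was 0.05, and -0.05 with total counts.

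Signs turned for the following members, most of which were not called. On implied length Tap1 was 0.01 and H2-K1 0.11, and H2-Eb1, B2m and H2-D1 were -0.08, -0.21 and -0.06. On exon length H2-Eb1, B2m, H2-D1, H2-Q1, H2-Ke6 and H2-Ab1 were -0.17, -0.24, -0.08, -0.04, -0.04 and -0.01. With total counts H2-Eb1, Tap2, H2-D1 and H2-Q1 were -0.05, -0.07, -0.03 and -0.03. With limma-trend H2-Eb1 was -0.05 and H2-D1 -0.03 in all 3 settings, Tap2 -0.06 to -0.07 and H2-Q1 -0.02. Left-out replicates turned H2-Eb1 (-0.01, Tespa1-/- 2), H2-Q10 (0.15, Tespa1-/- 1), H2-Aa (0.00, Tespa1+/+ 2, and 0.03, Tespa1-/- 3) and H2-Ab1 (-0.01, Tespa1+/+ 2); without a replicate H2-Q10 ranged from -0.58 to 0.15 and H2-Ab1 from -0.01 to 0.25. Calls lost without a library were those of Tapbp (Tespa1+/+ 2), H2-Oa (Tespa1+/+ 2 and 3, Tespa1-/- 1 and 3), H2-T23 (all but Tespa1-/- 2), H2-T10 (all but Tespa1-/- 1) and H2-Ke6 (all but Tespa1+/+ 2). Causes were not tested. Depth limits H2-Eb2, H2-Q10 and H2-DMb2, the tested members with the fewest counts.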

Other observations

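Genes for MHC-like molecules encoded outside the complex were compared as a further group. Of 5 genes, 1 rose and 3 fell, against 31.5% and 31.8% of all genes tested, with a median log2 fold change of -0.19. Procr, the endothelial protein C receptor that marks stem cells, was at 5.22 ± 1.09 CPM in Tespa1+/+ and 2.53 ± 0.392 CPM in Tespa1-/- LSKs (SD, n = 3; log2 fold change -1.06, SE 0.21, edgeR adjusted p 0.00316). Mr1, which presents vitamin B metabolites, fell by 0.74 on the log2 scale (SE 0.26, edgeR adjusted p 0.0377), although its groups overlapped. With the length correction Mr1 was at -0.53 and did not pass the test (edgeR adjusted p 0.118), and 1 of the 5 genes was then higher and 2 lower. Cd1d1, which presents lipids, fell by 0.19 (SE 0.07, edgeR adjusted p 0.0429). Hfe, a regulator of iron uptake, rose by 0.56 on the log2 scale (edgeR adjusted p 1.7e-04, SE 0.06), with 17.6 ± 0.449 CPM for Tespa1+/+ and 26 ± 0.708 CPM for Tespa1-/- LSKs (SD, n = 3 each). Fcgrt, the neonatal Fc receptor, was at -0.11 on the log2 scale (edgeR adjusted p 0.734, SE 0.25).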
